A study of Mus musculus with 35 samples.

Results

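The proteasome genes were described across CD8 T cells of the liver and spleen of mice on 2 diets. The genes were chosen by symbol alone: those written Psma, Psmb, Psmc, Psmd, Psme, Psmf or Psmg followed by a number, which gave 46 of the 22865 genes in the deposited count table. Of these, 5 were set against the other 41 as the immunoproteasome genes: Psmb8, Psmb9, Psmb10, Psme1 and Psme2. Left out were 3 pseudogene symbols ending in -ps and a number or nothing, and 2 symbols that go on after the number, Psmc3ip and Psme2b. A filter on low counts kept 44 of the 46 for testing, and Psme3 and Psme4 did not pass it.

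The proteasome is the large barrel-shaped protease that degrades proteins tagged with ubiquitin. Its core particle is built of alpha rings and beta rings, and the proteolytic sites lie on 3 beta subunits, which Psmb5, Psmb6 and Psmb7 encode. Under interferon, and at rest in lymphoid cells, these sites can be taken by the inducible subunits encoded by Psmb8, Psmb9 and Psmb10, giving the immunoproteasome, which is known for producing peptides for presentation on class I MHC. A regulatory particle of ATPases (Psmc genes) and other subunits (Psmd genes) caps the core and feeds in substrates. PA28, made from Psme1 and Psme2, is an alternative cap, and the products of the Psmg genes are chaperones that assemble the core.

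CD8 T cells, the cytotoxic lineage of T cells, came from C57BL/6 mice aged 13 months on a diet labelled ND or CD-HFD; the labels name no other genotype, allele or agent. Liver cells had been divided by the chemokine receptor CXCR6 into fractions labelled CXCR6pos and CXCR6neg, and spleen cells were of a fraction labelled CX3CR1neg. The 32 libraries used fell into 6 groups. ND gave 6 libraries for CXCR6pos, 4 for CXCR6neg and 5 for spleen, while CD-HFD gave 5, 6 and 6 for the same fractions. The labels do not say whether libraries of a group came from separate mice, so the p-values measure the spread between these libraries, which may be technical.

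Total counts per library ran from 15633 to 978896, and 2 libraries were shallow, ND CXCR6pos replicate 1 with 15633 and CD-HFD CXCR6pos replicate 5 with 57168. The same values stood under 2 labels, CXCR6neg replicate 1 and spleen replicate 6 of ND, and neither column was used. Levels are given as CPM, counts scaled to a common library total. Under ND, Cxcr6 was 201 CPM in replicate 6, the lowest of the CXCR6pos libraries, and 450.0 CPM in replicate 4, the highest of the CXCR6neg libraries, so these 2 libraries went against their labels, and 3 of the 6 CXCR6pos libraries lay below that replicate 4. Under CD-HFD, Cxcr6 was between 573 and 867 CPM in CXCR6pos and between 52.9 and 124 CPM in CXCR6neg. All 5 CD8 T cell markers (Cd8a, Cd8b1, Cd3e, Cd3d and Cd3g) were present in every group. Their sum was higher in CD-HFD CXCR6pos (8464 to 9306 CPM) than in CD-HFD CXCR6neg (6009 to 6354 CPM), with no overlap. Not every marker shared this gap: Cd8b1 overlapped, at 1592 to 2116 CPM in CXCR6pos and 1612 to 1826 CPM in CXCR6neg. Cd8a (1324 to 1715 against 836 to 1050 CPM) and Cd3e (1715 to 2076 against 989 to 1182 CPM) did not overlap. The 10 markers of plasmacytoid dendritic cells summed to a median of 202 CPM in CD-HFD CXCR6pos (range 159 to 224) and 1450 CPM in CD-HFD CXCR6neg (range 996 to 1592). The 8 B cell markers summed to medians of 336 and 1188 CPM in the same groups, and to 2366 and 3403 CPM in ND and CD-HFD spleen, while Cd79a and Ms4a1, which define B cells, were at 0 in CD-HFD CXCR6neg. Those of NK cells, 5 genes with Ncr1 at 0 in both groups, summed to 207 and 626 CPM. The 4 erythroid markers summed to medians of 6543, 6756 and 2680 CPM in CXCR6pos, CXCR6neg and spleen under CD-HFD, and to 3888, 4372 and 1264 CPM under ND. Of 9 markers of Kupffer cells and macrophages, 8 were in the count table. These summed to medians of 17.7, 5.05 and 94.4 CPM under CD-HFD, with Clec4f at 0 in all 3 groups.

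Proteasome RNA made up a similar part of the counts in the means of the 6 groups. The 46 genes together took between 0.848% and 0.915% of all counts in the group means. In single libraries they took from 0.791% (ND CXCR6neg replicate 3) to 0.972% (ND CXCR6pos replicate 5). Their summed level, scaled for library composition by the trimmed mean of M-values (TMM), was 8854 ± 1118 CPM in ND CXCR6pos (SD, n = 6), 9694 ± 292 in CD-HFD CXCR6pos (n = 5), 9097 ± 441 in ND CXCR6neg (n = 4) and 9281 ± 418 in CD-HFD CXCR6neg (n = 6). In the spleen it was 9506 ± 235 under ND (n = 5) and 9750 ± 386 under CD-HFD (n = 6). The ranges of the 6 groups overlapped, and the lowest library, at 6943 CPM, was the shallow ND CXCR6pos replicate 1. Gene by gene, the highest group mean was a median of 1.31 times the lowest over the 44 tested proteasome genes. The same ratio had a median of 1.60 over 6164 of the tested genes, those with a mean above 0 in every group, and of 1.47 over the 3427 with an overall mean of 50 CPM or more. In bulk samples, fewer cells of a type and less RNA per cell cannot be told apart.

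The inducible catalytic genes were the more abundant partners for 2 of the 3 sites. These libraries count 3′ ends, so levels of different genes can be set side by side without a correction for length. Psmb8 had the highest level of all 46 genes, with group means between 1069 and 1473 CPM, while Psmb5, the constitutive gene for that site, lay between 117 and 152 CPM. Psmb10 had group means of 320.1 to 361 CPM and its constitutive counterpart Psmb7 of 67.4 to 75.9 CPM. Psmb9, at 319.6 to 420.4 CPM, and its counterpart Psmb6, at 294 to 394 CPM, were close to each other. As a share of the counts of each pair, Psmb8 took between 88.1% and 91.5% in the group means. Psmb10 took between 81.0% and 85.6%, and Psmb9 between 48.6% and 57.7%. The 48.6%, in ND CXCR6pos, includes the shallow replicate 1 at 23.8%, and the other libraries had 50.2% to 62.5%. The Psmb6 mean of 394 CPM includes that replicate at 788 CPM on 16 counts. A pseudogene symbol that was left out, Psmb6-ps2, had 397 counts over the 32 libraries. How reads were divided between it and Psmb6 is not given in the sources used here. The 85.6%, in CD-HFD CXCR6pos, includes the shallow replicate 5 at 100%, with Psmb7 at 0, and the other libraries had 75.2% to 89.6%.

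**Figure D1:**
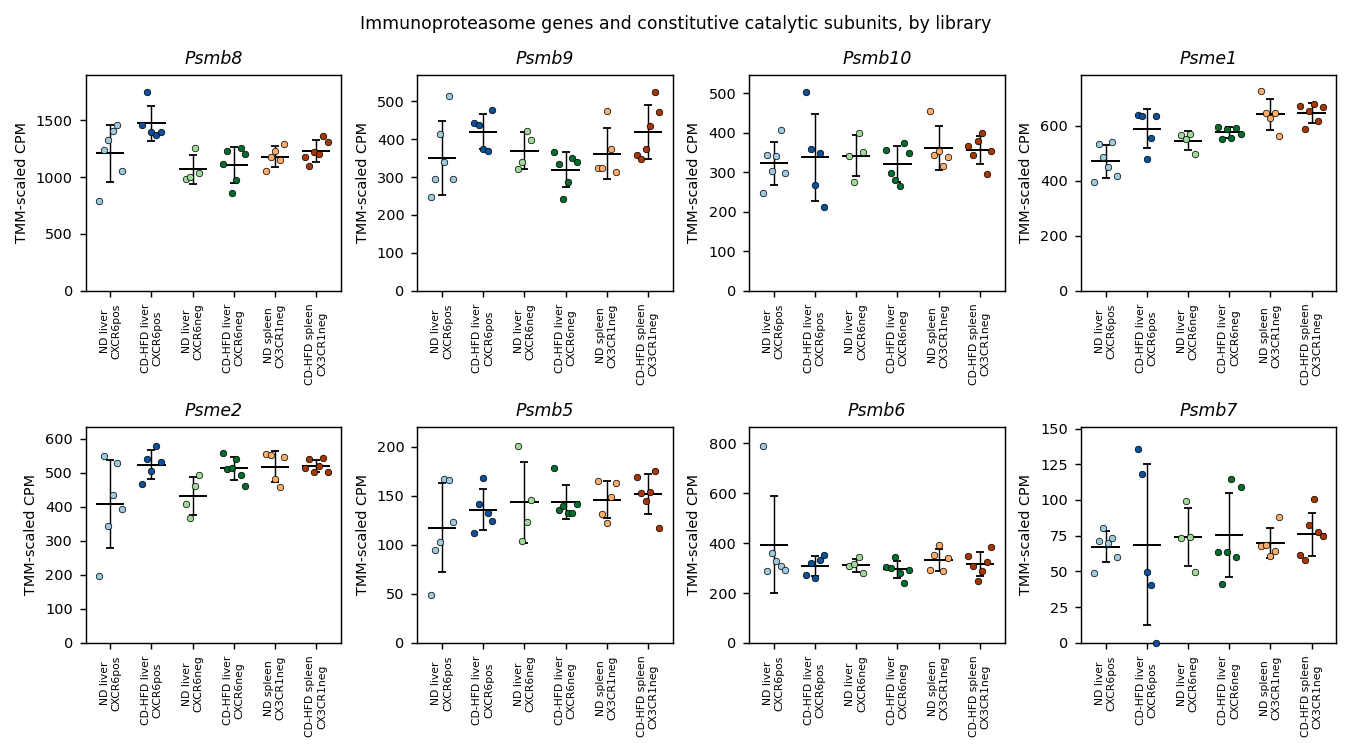
TMM-scaled CPM (vertical axis, from 0) of the 5 immunoproteasome genes and the 3 constitutive catalytic genes in the 32 libraries of the 6 groups; each point is a library, the line is the group mean and the bar is 1 SD. The 5 CD-HFD CXCR6pos libraries have Psmb8 between 1368 and 1748 CPM, above all 6 CD-HFD CXCR6neg libraries, and the point at 788 CPM for Psmb6 is ND CXCR6pos replicate 1, with 16 counts.

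Among the structural subunits, Psmb1, a beta subunit without a proteolytic site, was the most abundant, with group means of 674 to 728 CPM and a highest mean 1.08 times the lowest. In the alpha ring Psma7 and Psma2 were the highest, with means over the groups of 415 and 394 CPM, and Psma3 the lowest at 34.5 CPM. The PA28 genes were also abundant: Psme1 had group means of 471 to 646 CPM and Psme2 of 408 to 524 CPM. Chaperones of core assembly were low, Psmg1 at 23.6 to 56.9 CPM and Psmg3 at 18.3 to 32.1 CPM. The least abundant were Psme3, which encodes the nuclear cap PA28 gamma, with 173 counts over all 32 libraries and 2 libraries at 0, and Psme4, which encodes the cap PA200, with 102 counts and 3 libraries at 0.

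The level of Psme2 is uncertain, since a near-identical copy, Psme2b, took between 54.5% and 57.7% of the counts of both in the group means. Psme2b by itself had group means of 542 to 694 CPM. How a read was given to one or the other rests on the authors' counting, which the sources used here do not describe. Adding the counts of Psme2b to those of Psme2 changed no call. In the annotation 4 of the 5 immunoproteasome genes overlap a gene on the other strand: Psmb8 overlaps Gm20496, Psmb9 Tap1, Psmb10 Gm16156 and Psme1 Emc9. Psmb9 and Tap1 overlap where both gene models start, while these libraries count 3′ ends. The use of strand in counting is not given in the sources used here.

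The promoters of 3 of these genes are shown, because Psmb8 and Psmg1 were the members that passed the test in more than 1 comparison and Psmb5 is the constitutive counterpart of Psmb8. Each is the 250 bases before the RefSeq start on GRCm38.p6, written in the direction of the gene. Psmb8 lies on chromosome 17 at 34197721 to 34201454 on the plus strand, and its window is chr17:34197945-34198194, inside the longer gene model of GENCODE M21. Psmb5 lies on chromosome 14 at 54614119 to 54618022 on the minus strand, with the window chr14:54617996-54618245. Psmg1 lies on chromosome 16 at 95979933 to 95990960 on the minus strand, with the window chr16:95990961-95991210. Capitals mark a match to TTCNNNGAA, the core of the gamma-activated site, in Psmb8 and Psmg1, and to TGACNNNGC, the core of the antioxidant response element, in Psmb5.
Psmb8: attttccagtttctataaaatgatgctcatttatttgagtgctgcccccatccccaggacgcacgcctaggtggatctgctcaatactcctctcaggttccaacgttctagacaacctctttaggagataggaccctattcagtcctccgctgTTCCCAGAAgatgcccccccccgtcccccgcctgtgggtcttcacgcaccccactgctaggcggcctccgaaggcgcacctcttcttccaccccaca
Psmb5: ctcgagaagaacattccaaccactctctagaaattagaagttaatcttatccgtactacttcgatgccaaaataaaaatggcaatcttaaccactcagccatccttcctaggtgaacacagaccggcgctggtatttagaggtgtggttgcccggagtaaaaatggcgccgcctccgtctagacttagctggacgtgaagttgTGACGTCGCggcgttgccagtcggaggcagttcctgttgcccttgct
Psmg1: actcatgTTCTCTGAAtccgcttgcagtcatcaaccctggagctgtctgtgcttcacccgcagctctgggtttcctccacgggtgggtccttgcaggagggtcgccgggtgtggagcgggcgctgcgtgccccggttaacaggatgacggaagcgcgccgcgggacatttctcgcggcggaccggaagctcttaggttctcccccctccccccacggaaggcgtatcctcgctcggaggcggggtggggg

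Both strands of the promoters of 27025 genes were searched in the same window, counting a gene once if any of its promoters held the motif, and 39 of the 46 proteasome genes had an entry. TTCNNNGAA, which reads the same on both strands, was found for 8.13% of all these genes and in 2 of the 39, namely Psmb8 and Psmg1, or 5.13%. TGACNNNGC was in 11.5% of all and in 5 of the 39 (Psmb5, Psmb6, Psmc6, Psmd12 and Psmd9), or 12.8%. The core of the interferon-stimulated response element, 2 copies of GAAA set 2 bases apart, was in 3.46% of all and in 3 of the 39 (Psmb3, Psmd4 and Psmd9), or 7.69%. A match is a description of these letters in this window, and the data hold no measure of binding there.

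The first comparison asked how CXCR6pos differed from CXCR6neg cells in the liver under CD-HFD. Psmb8 rose and no other tested proteasome gene passed the threshold, an adjusted p of 0.05 in edgeR's quasi-likelihood test with Benjamini-Hochberg adjustment over the 6174 genes tested. That is 1 of 44 proteasome genes, while 11.1% of all genes tested were called, 4.76% as higher and 6.38% as lower. Psmb8 stood at 1459, 1748, 1394, 1368 and 1397 CPM in the 5 CXCR6pos libraries. Among the 6 CXCR6neg libraries it had a lowest value of 863, a median of 1161 and a highest of 1255 CPM. The groups did not overlap, and all 5 CXCR6pos libraries were higher than all 6 CXCR6neg libraries. The log2 fold change was 0.42 ± 0.11 (SE), or 1.34-fold, with an edgeR adjusted p of 0.00225. CXCR6pos replicate 2 stood above its group, and without it the change was 0.34 with an edgeR adjusted p of 0.0318.

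Psmb9, the inducible gene of the site that Psmb6 otherwise fills, had 443, 439, 373, 369 and 477 CPM in the CXCR6pos libraries. The CXCR6neg libraries had a lowest value of 241, a median of 337 and a highest of 366 CPM. The groups did not overlap, but the change of 0.36 ± 0.14 did not pass the threshold (edgeR adjusted p = 0.0780). It passed when the fit held only these groups (edgeR adjusted p = 0.0398) and when replicate number was a block in that fit (edgeR adjusted p = 0.0298). Psmb10, the inducible gene of the site of Psmb7, had log2 fold changes of 0.15 ± 0.14, Psme1 of 0.03 ± 0.11 and Psme2 of 0.04 ± 0.12, and the libraries of the 2 groups overlapped for all of them. All 5 immunoproteasome genes had a positive sign, with a median of 0.15, against a median of -0.00 over all 44 tested proteasome genes and of -0.00 over all genes tested. The 5 genes were measured in the same libraries, so shared signs, here or in later comparisons, are not 5 separate results.

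Their constitutive counterparts showed no call: the change was -0.08 ± 0.18 for Psmb5, with a 95% interval of -0.44 to 0.28, and the 3 counterparts lay between -0.08 and 0.04. None of the 7 alpha ring genes, 6 regulatory ATPase genes and 11 other regulatory subunit genes passed, with medians of -0.06, -0.00 and -0.08. Of the 44 proteasome genes, 43 lay within 0.5 of 0 on the log2 scale, against 4666 of the 6174 genes tested. Psmg1, at -0.95 ± 0.39, was the one outside that range and did not pass (edgeR adjusted p = 0.11). Proteasome genes had a median SE of 0.18 and all genes tested of 0.28, so the proteasome genes were also the more precisely measured.

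Genes that work with the immunoproteasome were read from a list of class I antigen processing. Of its 15 tested members 4 rose and 0 fell, with a median of 0.28. Tap2 and Tap1, which form the transporter that carries peptides into the endoplasmic reticulum, rose by 0.56 ± 0.14 and 0.46 ± 0.15 (edgeR adjusted p = 0.00142 and 0.0350). Pdia3, a chaperone of class I loading, rose by 0.43 ± 0.12 and Nlrc5, the transactivator of class I genes, by 0.66 ± 0.23 (edgeR adjusted p = 0.00678 and 0.0488). None of the 19 tested proteasome partners passed, among them Pomp, the maturation chaperone of the core, at -0.07 ± 0.14, and Nfe2l1, the transcription factor of the proteasome recovery response, at 0.31 ± 0.39.

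In the list of interferon signalling 2 of 22 tested genes rose and 6 fell, with a median of -0.14. Ifng, the cytokine interferon gamma, rose by 0.96 ± 0.24 and the interferon-induced Isg15 by 1.05 ± 0.25. The receptor gene Ifngr1 fell by 0.85 ± 0.12 and the transcription factor gene Irf1 fell by 0.62 ± 0.14 (edgeR adjusted p = 5.62e-08 and 0.000986). Bst2 also fell (edgeR adjusted p = 2.77e-05), and it is among the plasmacytoid dendritic cell markers, whose sum was lower in CXCR6pos. Of 9 tested proliferation genes 1, Hmgb2, rose by 0.50 ± 0.14. The summed markers of CD8 T cells were higher, and those of plasmacytoid dendritic, B and NK cells lower, in the group with the higher Psmb8, and their part in it was not tested.

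**Figure D2:**
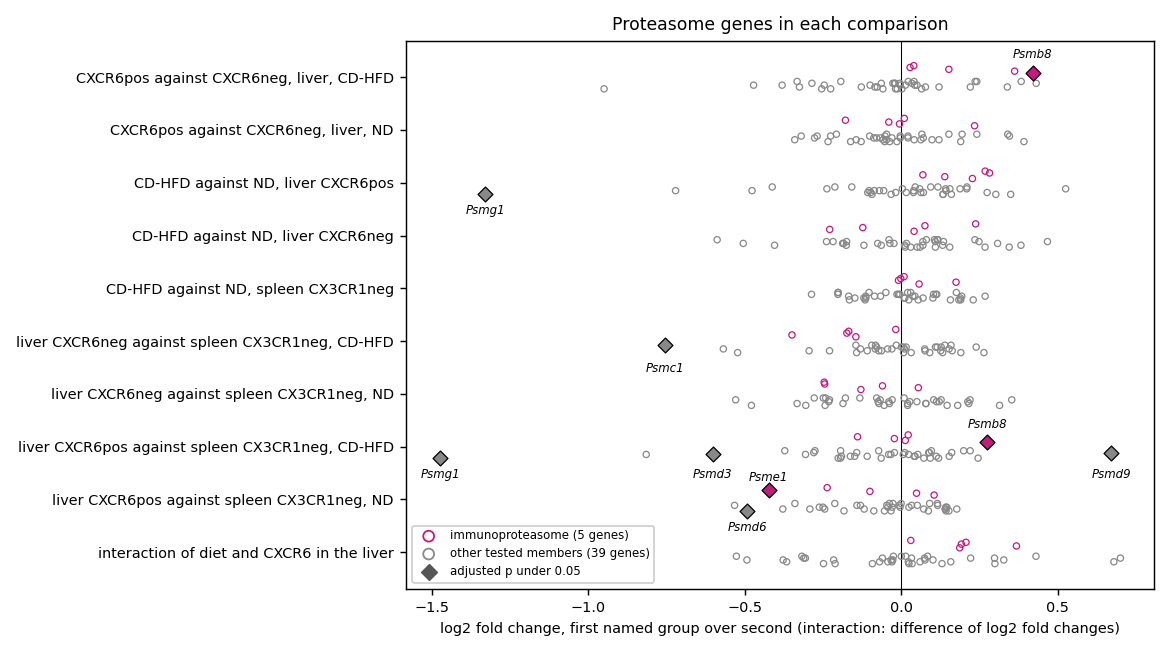
Log2 fold change (horizontal axis) of the 44 tested proteasome genes in each of the 10 comparisons (vertical axis); pink marks the 5 immunoproteasome genes, grey the other 39, and filled diamonds those with an adjusted p under 0.05. Psmb8 at 0.42 is the only diamond of CXCR6pos against CXCR6neg under CD-HFD, and the diamonds farthest from 0 are those of Psmg1 at -1.33 and -1.47.

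Under ND, the same comparison of CXCR6pos with CXCR6neg called 0 of 44 proteasome genes in edgeR and 0 in DESeq2, with 2 below 0.05 in edgeR before adjustment. Of all genes tested, 0.0324% were called, all of them as lower, so Cxcr6, which divided the fractions, was itself not called as higher. The lack of calls for proteasome genes is therefore no measure of how alike the fractions were. Psmb8 was at 987, 998, 1256 and 1034 CPM in the CXCR6neg libraries. In the 6 CXCR6pos libraries it had a lowest value of 788, a median of 1280.1 and a highest of 1458 CPM, and the groups overlapped. Its change of 0.23 ± 0.11 did not pass (edgeR adjusted p = 0.573), and that of Psmb9 was -0.01 ± 0.14. The lowest Psmb8 value was the shallow replicate 1 with 16 counts, and the next lowest, 1052 CPM, was replicate 6, which went against its Cxcr6 label. In that replicate the plasmacytoid dendritic, B and NK cell markers summed to 1245, 1338 and 478 CPM, against ranges of 98.5 to 192, 247 to 689 and 160 to 266 CPM in the other 5 CXCR6pos libraries, and their part in the result was not tested. The highest CXCR6neg value of 1256 CPM was replicate 4, the other library against its label.

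Whether the CXCR6 difference itself changed with diet was tested as an interaction, which called 0 of 44 proteasome genes in edgeR and in DESeq2, with 1.44% of all genes called, 0.437% as higher and 1% as lower. Before adjustment 1 proteasome gene, Psmg1, was below 0.05 in edgeR. The interaction of Psmb8 was 0.19 ± 0.15, with a 95% interval of -0.12 to 0.49 (edgeR adjusted p = 0.739). That of Psmb9 was 0.37 ± 0.20 (edgeR adjusted p = 0.499). The Psmb8 change under CD-HFD is not shown to differ from that under ND. The interaction is limited by the same ND comparison, in which Cxcr6 was not called as higher. Psmg1 had the interaction farthest from 0, -1.34 ± 0.50, which did not pass (edgeR adjusted p = 0.190).

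Diet was compared next within CXCR6pos cells, CD-HFD against ND, a comparison that shares the CD-HFD CXCR6pos libraries with the first; all 10 comparisons share groups in this way, so their values are set side by side only. Psmg1, which encodes a chaperone that pairs alpha subunits into the ring of the core, fell, and it was the 1 call among 44, with 11.3% of all genes called, 4.84% as higher and 6.45% as lower. It stood at 29.5, 16.9, 24.9, 11.5 and 35.4 CPM in the CD-HFD libraries, on 5, 5, 4, 4 and 2 counts. In the 6 ND libraries it had a lowest value of 23.7, a median of 57.3 and a highest of 98.5 CPM, the last on 2 counts. The groups overlapped, and 2 ND libraries lay within the range of CD-HFD. Psmg1 fell by 1.33 ± 0.36 on the log2 scale, 2.51-fold lower (edgeR adjusted p = 0.00555). Without CD-HFD replicate 4 the change was -1.07 and did not pass (edgeR adjusted p = 0.0721), and with replicate number as a block it was -1.11 (edgeR adjusted p = 0.137).

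All 5 immunoproteasome genes had positive signs in the diet comparison of CXCR6pos cells and none passed, with a median of 0.23 against 0.06 over all tested proteasome genes and -0.00 over all genes. Psme1, which encodes the alpha subunit of PA28, had 638, 635, 479, 557 and 637 CPM under CD-HFD. Under ND it had a lowest value of 394, a median of 469.6 and a highest of 541 CPM. The groups overlapped through the CD-HFD library at 479 CPM. The change of 0.28 ± 0.11 missed the threshold (edgeR adjusted p = 0.0925), while DESeq2 gave it an adjusted p of 0.0428. For Psmb8 the change was 0.23 ± 0.10, for Psme2 0.27 ± 0.12, for Psmb9 0.14 ± 0.14 and for Psmb10 0.07 ± 0.14. The ND group holds the shallow replicate 1 and replicate 6, which went against its Cxcr6 label. The immunoproteasome genes took 27.0% and 28.5% of proteasome counts in these libraries, against 32.3% to 33.2% in the other ND CXCR6pos libraries.

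The constitutive genes Psmb5, Psmb6 and Psmb7 had changes between -0.10 and 0.14 with diet in CXCR6pos cells, none past the threshold. Of the 15 class I processing genes 2 rose and 0 fell: Tap1 by 0.57 ± 0.15 and Tap2 by 0.49 ± 0.13 (edgeR adjusted p = 0.00481 and 0.00600). Tap1 was at 319, 219, 274, 265 and 230 CPM under CD-HFD, against a range of 101 to 246 CPM under ND, so the groups overlapped. Interferon genes went both ways, with 2 of 22 higher and 3 lower: Irf2 rose by 0.69 ± 0.16 and Isg15 by 0.86 ± 0.23, while Ifngr1 fell by 0.71 ± 0.12, Ifi47 fell by 0.46 ± 0.13 and Ifng fell by 0.70 ± 0.20. None of the 19 proteasome partners passed, and of the 9 proliferation genes Tyms rose, by 1.30 ± 0.36 (edgeR adjusted p = 0.00617).

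**Figure D3:**
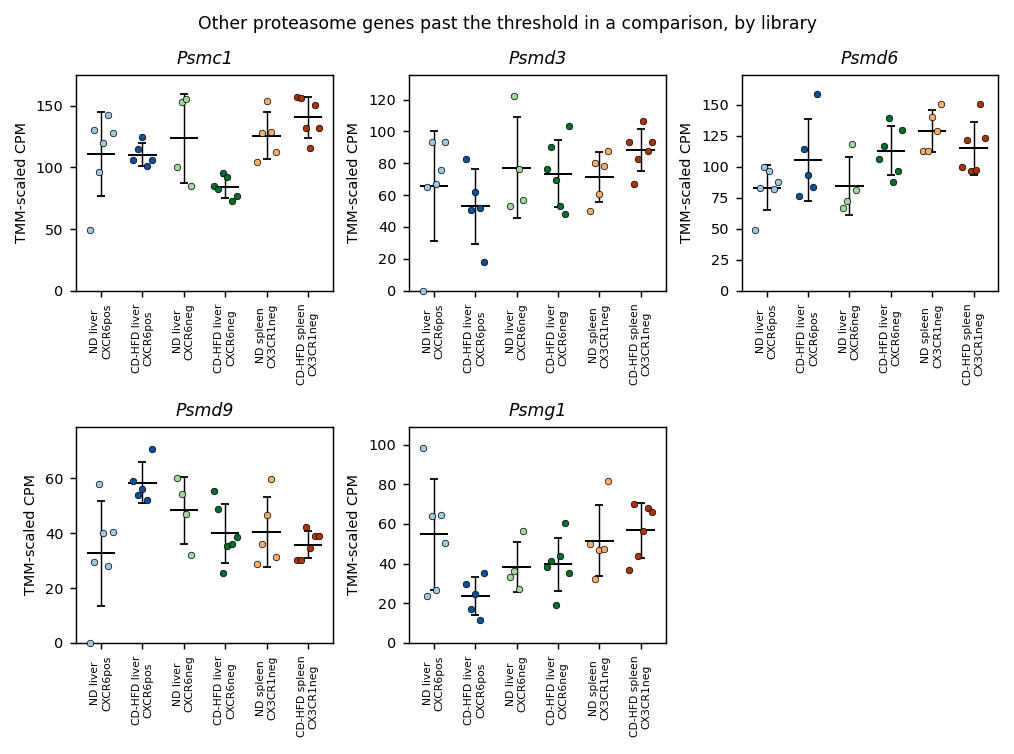
TMM-scaled CPM (vertical axis, from 0) of the 5 proteasome genes outside the immunoproteasome that passed the threshold in a comparison, by library and group; points are libraries, lines are group means and bars are 1 SD. Psmg1 lies between 11.5 and 35.4 CPM in CD-HFD CXCR6pos, below every CD-HFD spleen library, and Psmc1 lies between 72.4 and 95.1 CPM in CD-HFD CXCR6neg.

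In CXCR6neg cells and in spleen cells, diet called no proteasome gene. For CXCR6neg, edgeR and DESeq2 each called 0 of 44, with 0.47% of all genes called, 0.292% as higher and 0.178% as lower. Before adjustment 2 were below 0.05 in edgeR: Psmc1, an ATPase of the regulatory particle, at -0.59 ± 0.20 and Psmd14, its deubiquitinase, at 0.47 ± 0.21 (edgeR adjusted p = 0.203 and 0.501). The medians were 0.04 for the immunoproteasome genes and 0.05 for all tested proteasome genes. For the spleen, edgeR and DESeq2 again called 0, with 0 below 0.05 before adjustment and 0.0324% of all genes called, 0.0162% as higher and 0.0162% as lower. All 44 spleen changes lay between -0.29 and 0.27, and Psmb8 had 0.06 ± 0.10 with a 95% interval of -0.14 to 0.25.

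The liver and spleen fractions were then compared under each diet, which asks how tissue and fraction together separate the cells, since the sorted fractions differ. Liver CXCR6pos against spleen under CD-HFD gave the most calls, 2 of 44 higher and 2 lower, where 25.7% of all genes were called, 12.5% as higher and 13.3% as lower. Psmg1 had a lowest value of 37.0, a median of 61.3 and a highest of 70.0 CPM in the 6 spleen libraries, and 11.5 to 35.4 CPM in the liver. The groups did not overlap, with every liver library below every spleen library. Psmg1 fell by 1.47 ± 0.33 on the log2 scale, 2.78-fold lower (edgeR adjusted p = 0.000207). It kept its call without each library in turn, with changes from -1.62 to -1.22.

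Psmb8 rose in that comparison by 0.28 ± 0.10, or 1.21-fold (edgeR adjusted p = 0.0336). The spleen libraries had a lowest value of 1095, a median of 1213 and a highest of 1365 CPM, just under the lowest liver value of 1368 CPM. Without liver CXCR6pos replicate 2 the change was 0.21 and did not pass (edgeR adjusted p = 0.177), nor did it pass without spleen replicate 1 or 2 (edgeR adjusted p = 0.0519 and 0.0752) or with no filter on low counts (edgeR adjusted p = 0.389). Psmd9, a chaperone of the regulatory particle, rose by 0.67 ± 0.26 and Psmd3, a subunit of that particle, fell by 0.60 ± 0.23 (edgeR adjusted p = 0.0478 and 0.0454). Psmd9 had 59.1, 54.0, 56.0, 51.9 and 70.7 CPM in the liver, on 4 to 18 counts, and 30.1 to 42.1 CPM in the spleen. Psmd3 had 82.7, 50.6, 62.2, 51.9 and 17.7 CPM in the liver and 66.7 to 107 CPM in the spleen, and its groups overlapped. DESeq2 called neither (adjusted p = 0.0741 and 0.0842). Psmd9 lost its call without any 1 of the 5 liver libraries or of spleen replicates 1, 2 and 4, and Psmd3 without liver replicate 2, 3, 4 or 5 or spleen replicate 1, 3, 4, 5 or 6.

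Class I processing genes were higher in liver CXCR6pos than in spleen cells under CD-HFD, with 8 of 15 higher, 0 lower and a median of 0.33. Tap2 rose by 0.83 ± 0.13, H2-D1 and B2m, which encode a class I heavy chain and its light chain, by 0.47 ± 0.09 and 0.45 ± 0.09, Tap1 by 0.58 ± 0.14 and Nlrc5 by 0.83 ± 0.21. By contrast the 5 immunoproteasome genes had a median of 0.01, with Psmb9 at 0.01 ± 0.13, Psmb10 at -0.02 ± 0.13, Psme1 at -0.14 ± 0.10 and Psme2 at 0.02 ± 0.11. Of 22 interferon genes 6 rose and 1 fell, and Ifng rose by 3.79 ± 0.29. Among proteasome partners, Ubb, which encodes polyubiquitin, rose by 0.71 ± 0.10, and Ube3a, which encodes a ubiquitin ligase, fell by 0.52 ± 0.19. Of the proliferation genes 3 of 9 rose. The summed B cell markers had medians of 336 CPM in CXCR6pos and 3403 CPM in spleen, and those of macrophages 17.7 and 94.4 CPM. Plasmacytoid dendritic cell markers had 202 and 409 CPM, and erythroid markers went the other way, at 6543 and 2680 CPM. The part of these other cells in the results for CXCR6pos against spleen under CD-HFD, proteasome genes included, was not tested.

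Under ND, 2 of 44 proteasome genes fell in liver CXCR6pos against spleen cells and none rose, where 14.4% of all genes were called, 7.43% as higher and 6.98% as lower. Psme1 stood at 726, 645, 627, 646 and 564 CPM in the spleen, above all 6 liver libraries, which ran from 394 to 541 CPM. It fell by 0.42 ± 0.10 on the log2 scale, 1.34-fold lower (edgeR adjusted p = 0.00150). It kept this call without each library in turn, and lost it with replicate number as a block, where the change was -0.34 (edgeR adjusted p = 0.102). Psme2 had -0.24 ± 0.11 and did not pass (edgeR adjusted p = 0.159). With the counts of Psme2b added it had -0.27 ± 0.10 and did not pass either (edgeR adjusted p = 0.0607).

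Psmd6, a subunit of the regulatory particle, was at 113, 113, 139.8, 129 and 150.5 CPM in ND spleen and at 49.2 to 99.6 CPM in ND CXCR6pos. The groups did not overlap, and it fell by 0.49 ± 0.17 (edgeR adjusted p = 0.0377). DESeq2 did not call it (adjusted p = 0.0628), and it lost its call without the 2 ND libraries that went against their Cxcr6 labels (edgeR adjusted p = 0.0702). It also lost the call without liver replicate 2, 5 or 6 or spleen replicate 3, 4 or 5, with edgeR adjusted p between 0.0594 and 0.10. The same held with replicate number as a block (edgeR adjusted p = 0.0729), with no filter on low counts (0.124), and with the identical library kept in both groups or in the spleen (0.0520 and 0.0535). Psmb8 was 0.10 ± 0.10 in this comparison, Psmb9 0.05 ± 0.13 and Psmb10 -0.10 ± 0.12, with all of them overlapping between groups. Of the class I genes 4 of 15 rose and 0 fell, Nlrc5 by 0.69 ± 0.22 and Tap2 by 0.40 ± 0.13 among them. Of the proteasome partners Ubb again rose, by 0.84 ± 0.10, and 5 of 22 interferon genes rose. Under ND the summed B cell markers had medians of 317 CPM in CXCR6pos and 2366 CPM in spleen. Erythroid markers had 3888 and 1264 CPM. The part of these other cells in the ND results for Psme1, Psmd6 and the listed genes was not tested.

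For liver CXCR6neg against spleen under CD-HFD, Psmc1 was the 1 call of 44, as lower, with 10.4% of all genes called, 5.73% as higher and 4.71% as lower. Psmc1 had a lowest value of 72.4, a median of 83.9 and a highest of 95.1 CPM in CXCR6neg, and a lowest of 116, a median of 141 and a highest of 158 CPM in the spleen. The groups did not overlap. It fell by 0.76 ± 0.16 on the log2 scale, 1.69-fold lower (edgeR adjusted p = 0.000352), and kept its call without each library in turn, with changes from -0.78 to -0.70. The other ATPase genes had 5 positive signs of 5, with none called. In CXCR6pos cells under CD-HFD Psmc1 was at 106, 115, 124, 101 and 106 CPM, above every CXCR6neg library, and that difference of 0.38 ± 0.20 did not pass (edgeR adjusted p = 0.268).

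All 5 immunoproteasome genes had a negative sign in that comparison of CXCR6neg with spleen cells, with a median of -0.17, against 0.01 for the other proteasome genes and -0.02 for all genes tested. Psmb9 was nearest to the threshold, at -0.35 ± 0.12 (edgeR adjusted p = 0.0507). It passed without CXCR6neg replicate 1 or without spleen replicate 1, 2 or 3, with edgeR adjusted p between 0.0321 and 0.0495. Psmb8 had -0.15 ± 0.10, Psmb10 -0.17 ± 0.12, Psme1 -0.17 ± 0.10 and Psme2 -0.02 ± 0.10. Of the 22 interferon genes 6 rose and 0 fell, Ifng by 2.83 ± 0.32 and Irf1 by 0.46 ± 0.12, and of the class I genes B2m and H2-D1 rose by 0.34 ± 0.08 and 0.28 ± 0.09. The summed plasmacytoid dendritic cell markers had a median of 1450 CPM in CXCR6neg and 409 CPM in spleen, and those of B cells 1188 and 3403 CPM. Erythroid markers were also higher in CXCR6neg by their medians, and macrophage markers lower, as given above. Their part in these results was not tested.

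Under ND the same comparison called no proteasome gene in edgeR or DESeq2, with 6.87% of all genes called, 4.73% as higher and 2.14% as lower. Before adjustment 5 proteasome genes were below 0.05 in edgeR. Psme1 and Psme2 each had -0.25, with SE of 0.11 and 0.12 (edgeR adjusted p = 0.213 and 0.261). Psmc1 had 0.01 ± 0.18, and Psmb8 -0.13 ± 0.11. The 4 assembly chaperones Psmg1 to Psmg4 all had negative signs here and under CD-HFD, with medians of -0.27 and -0.41 and none called. In CXCR6pos against spleen under CD-HFD their median was -0.48, with Psmg1 as the call.

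**Figure D4:**
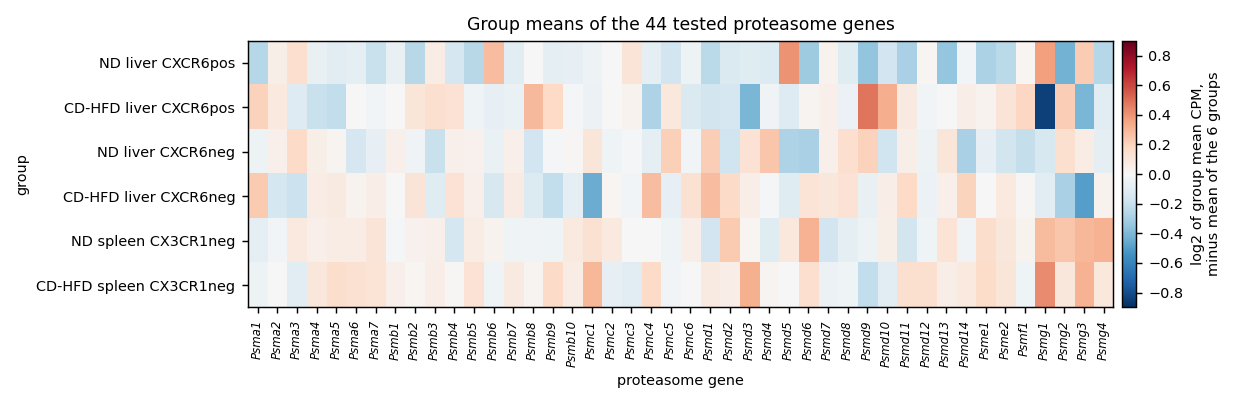
Group means of the 44 tested proteasome genes: each column is a gene, each row a group, and the color is the log2 of the group mean in TMM-scaled CPM minus the mean of the 6 groups (red higher, blue lower). Most cells are pale, and the darkest is Psmg1 in CD-HFD CXCR6pos (23.6 CPM), followed by Psmg3 in CD-HFD CXCR6neg (18.3 CPM), Psmd9 in CD-HFD CXCR6pos (58.4 CPM, higher) and Psmc1 in CD-HFD CXCR6neg (84.1 CPM).

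As a description over the groups, the 5 immunoproteasome genes took 31.0% ± 2.57 of all proteasome counts in ND CXCR6pos (SD, n = 6) and 34.5% ± 2.06 in CD-HFD CXCR6pos (n = 5). The share was 30.3% ± 1.33 in ND CXCR6neg (n = 4) and 30.5% ± 1.73 in CD-HFD CXCR6neg (n = 6). In ND and CD-HFD spleen it was 32.3% ± 1.13 (n = 5) and 32.5% ± 1.15 (n = 6). The CD-HFD CXCR6pos libraries had 36.2%, 37.0%, 32.4%, 32.6% and 34.2%, and the CD-HFD CXCR6neg libraries ran from 28.3% to 32.8%. In ND CXCR6pos the shallow replicate 1 had 27.0%, on 38 of 141 counts. Replicate 6, which went against its Cxcr6 label, had 28.5%. The other ND CXCR6pos libraries had 32.3% to 33.2%, so these 2 libraries lowered the ND mean. CD-HFD CXCR6pos had the highest mean of the 6 groups, and its libraries overlapped with those of every other group except ND CXCR6neg, whose highest library had 32.1%. The level of the other 41 genes ran from 6092 to 6581 CPM in the group means, with SDs of 182 to 597 CPM.

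**Figure D5:**
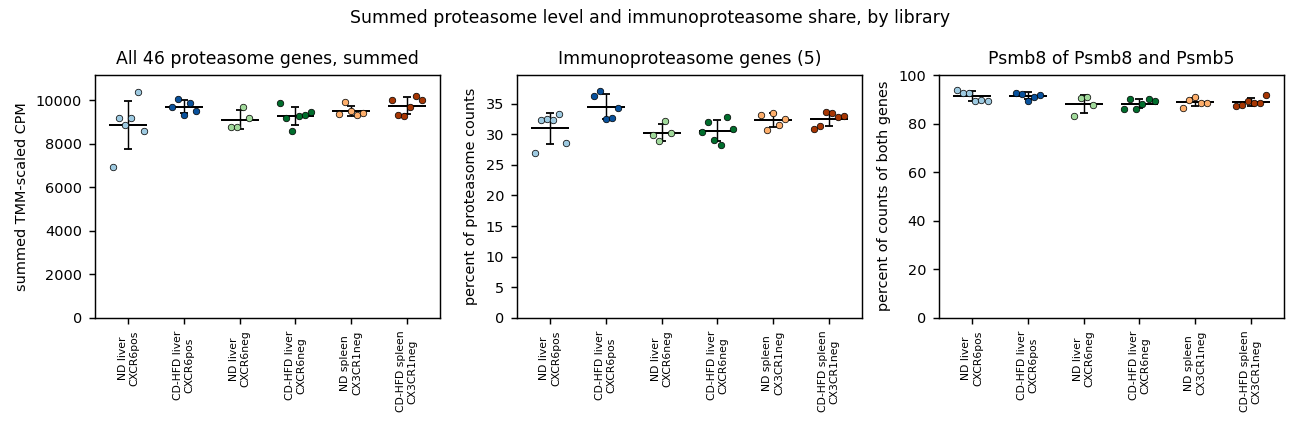
Summed TMM-scaled CPM of the 46 proteasome genes (left), the share of proteasome counts from the 5 immunoproteasome genes in percent (middle) and the share of Psmb8 in the counts of Psmb8 and Psmb5 in percent (right), by library and group; lines are means, bars 1 SD and axes start at 0. The immunoproteasome share runs from 32.4% to 37.0% in CD-HFD CXCR6pos and from 28.3% to 32.8% in CD-HFD CXCR6neg, and the lowest summed level, 6943 CPM, is the shallow ND CXCR6pos replicate 1.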

How the data were processed

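CD8 T cells were measured by 3′ RNA sequencing with sample barcodes and unique molecular identifiers, per the labels' protocols. The authors deposited whole-number counts per gene symbol, and the submitters' processing notes list GRCm38.p6 and DESeq2 1.14.1. The sources used here do not name the aligner, counter, annotation or strand setting, nor say whether molecular identifiers were collapsed. Of 35 columns 34 matched a sample's labels, and 1 did not and was not used. Replicate 6 of CXCR6pos under CD-HFD was not analysed here. Leaving out the 2 identical columns gave 32 libraries, grouped by the labels.

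In R 4.3.3, edgeR 4.0.16 (with limma 3.58.1) filtered low counts with filterByExpr, leaving 6174 genes, scaled by TMM and fitted all 6 groups together with a robust quasi-likelihood model. Benjamini-Hochberg adjustment ran over all 6174 genes, with a threshold of 0.05. SE is the absolute log2 fold change divided by the square root of the F statistic. The biological coefficient of variation was 0.122. Levels are TMM-scaled CPM, and depth ran from 15633 to 978896 counts, so that 1 count is worth most in the shallowest libraries. A count of 0 in ND CXCR6pos replicate 1, as for Psmd3 and Psmd9, allows up to 147.7 CPM (3 counts, counting error only), and that of Psmb7 in CD-HFD CXCR6pos replicate 5 up to 53.0 CPM. The script was run on simulated counts for 1 comparison, drawn with 1 spread for all genes, which checks the code and not the calls reported here.

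Named were the 5 immunoproteasome genes and Psmb5, Psmb6 and Psmb7 in any comparison, other proteasome genes past the threshold, those that failed the filter, and, of each pathway list, up to 5 called genes with the smallest p plus Tap1, Tap2, Nlrc5, Irf1, Ifng, Nfe2l1 and Pomp, leaving out some genes that are not reported here; Psmd14 was named after its values were seen, as were Psmb1, Psma2, Psma3, Psma7 and Psmg3 for their levels. The members and lists were chosen with earlier results of these data known. Alternatives were DESeq2 1.42.0, other size factors, no filter, fits of the compared groups alone, a replicate block, leaving out libraries, keeping the identical library and, chosen after seeing the data, adding Psme2b to Psme2. Promoter sequences came from RefSeq (GRCm38.p6), and 39 of 46 genes matched; gene positions came from GENCODE M21. Figures were drawn with Python 3.11.15 and matplotlib 3.10.9.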

Additional observations from a re-analysis of the deposited data

Results flagged for a closer look

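Within the groups, each of 4 to 6 libraries, 1 library lay far from the rest in 7 of the 90 groups of values checked. Chance gives about 1 in 20. All 7 were levels of a named proteasome gene, as were most of the 90 groups of values checked. Psmb8 in CD-HFD CXCR6pos replicate 2 was 1748 CPM, with the other libraries of its group between 1368 and 1459 CPM. Psmb10 in ND spleen replicate 1 was 456 CPM, with the others between 315 and 355 CPM. Psmb5 in CD-HFD CXCR6neg replicate 1 was 179 CPM, with the others between 132 and 142 CPM. Psmb7 in ND spleen replicate 5 was 87.8 CPM on 14 counts, with the others between 61.0 and 68.3 CPM.

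The other 3 were all in ND CXCR6pos replicate 1, the library with 15633 counts. Psmb6 was 788 CPM there on 16 counts, with the others between 290.0 and 359.7 CPM. Psmd3 was at 0 CPM, with the others between 65.1 and 93.1 CPM. Psmd6 was 49.2 CPM on 1 count, with the others between 82.0 and 99.6 CPM.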

How the results depend on the processing

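For each comparison, leaving out each library in turn covered only the libraries of the groups compared. Psmb8 in CXCR6pos against CXCR6neg under CD-HFD kept its direction and its call under every alternative examined. Its changes were 0.34 to 0.47, with edgeR or DESeq2 adjusted p of 0.000169 to 0.0318. Psmg1 in CXCR6pos against spleen and Psmc1 in CXCR6neg against spleen, both under CD-HFD, also kept direction and call under every alternative examined. Among the 5 immunoproteasome genes, their constitutive counterparts and the other genes called, none changed sign while called, a call was lost in 46 fits of a gene under an alternative and gained in 10, all of Psmb9 or Psme1. Psmc1, Psmc4, Psmd4, Psmd6 and Psmg4 also gained calls in comparisons where they had none. Same-numbered libraries had correlations of -0.0621 to 0.0840, and not every library correlated best with its own number in any comparison. The own number was best in 3 of 5 pairs for diet in CXCR6pos and in 0 of 5 for CXCR6pos against spleen under ND. With few counts for most genes such correlations stay low in any case, so whether replicate numbers pair the libraries was not decided. Calls among the 44 proteasome genes with the replicate block were 2 for CXCR6pos against CXCR6neg under CD-HFD (Psmb8 and Psmb9), 0 for diet in CXCR6pos, 2 for CXCR6neg against spleen under CD-HFD (Psmb9 and Psmc1), 2 for CXCR6pos against spleen under CD-HFD (Psmb8 and Psmg1) and 1 under ND (Psmg4, with Psme1 and Psmd6 lost). With only the compared groups in the fit, the first and the third of these were also 2 and 2. DESeq2 gave 2 calls for diet in CXCR6pos, and 2 and 1 for CXCR6pos against spleen under CD-HFD and ND, and edgeR without a filter on low counts gave 1 and 1 for that pair.

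Without the libraries of low depth, CXCR6pos against spleen under CD-HFD had 2 calls. Keeping the identical library in both groups or in the liver gave 1 call (Psmc1) for diet in CXCR6neg. Keeping it in the spleen gave 1 (Psmd4) for CXCR6neg against spleen under ND, and keeping it in both groups or in the spleen gave 1 for CXCR6pos against spleen under ND. Without the 2 ND libraries against their Cxcr6 labels these comparisons had 1 (Psmd6) and 1. The cause of these changes was not tested.

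Leaving out each library in turn gave 1 to 2 calls for CXCR6pos against CXCR6neg under CD-HFD (2 without CXCR6pos replicate 4), 0 to 2 for diet in CXCR6pos (0 without CD-HFD replicate 4, 2 without CD-HFD replicate 3) and 1 to 2 for CXCR6neg against spleen under CD-HFD (2 without CXCR6neg replicate 1 or spleen replicate 1, 2 or 3). It gave 0 to 1 for CXCR6neg against spleen under ND (1 without CXCR6neg replicate 4 or spleen replicate 3), 1 to 3 for CXCR6pos against spleen under CD-HFD (1 without CXCR6pos replicate 2 or spleen replicate 1) and 1 to 3 under ND (3 without spleen replicate 1).

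Adding Psme2b raised the immunoproteasome share to 34.9% in ND and 38.5% in CD-HFD CXCR6pos, 34.5% and 35.02% in CXCR6neg, and 36.9% and 36.9% in spleen. It raised the summed level to 10323 CPM in CD-HFD CXCR6pos, 9681 and 9918 CPM in ND and CD-HFD CXCR6neg, and 10199 and 10432 CPM in spleen. Without TMM scaling these were 9149, 8477, 8782, 8873 and 9085 CPM. Depth limits Psmg1, Psmd3 and Psmd9. Psmg1 rests on a few counts in every CD-HFD CXCR6pos library, the deeper ones included, and Psmd3 and Psmd9 rest on a few counts in shallow libraries.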
